A study of Homo sapiens with 8 samples.

Results

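The libraries described here are the 2 ribosome profiling libraries labelled GFP DMSO, replicates 1 and 2, chosen by that label from the 8 libraries of the series. G401 is an established cell line from a rhabdoid tumour of the kidney that lacks SMARCB1, a core subunit of the mSWI/SNF chromatin remodelling complex. The GFP DMSO cells carried GFP under a Tet-On promoter and were given DMSO for 12 h, without doxycycline, so that neither GFP nor SMARCB1 was induced. The other groups, with 2 libraries each, were the same GFP line given 0.1 μg/ml doxycycline for 12 h (GFP Dox) and a G401 line carrying SMARCB1 under the Tet-On promoter, given DMSO (SMARCB1 DMSO) or 0.1 μg/ml doxycycline (SMARCB1 Dox) for 12 h. All groups share the loss of endogenous SMARCB1 and an engineered construct. Plates of a condition were pooled before each library was made, and nothing in the labels says that the replicates came from separate cultures. A standard deviation (SD) or p-value given here therefore measures only the spread between these samples, which may be technical. Treatments were not compared.

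Ribosome profiling sequences the short mRNA fragments that translating ribosomes protect, called footprints. The number of footprints on a gene depends on the amount of its mRNA, on how densely ribosomes sit on that mRNA, and on the length of the coding sequence. Rhabdoid tumours arise in infancy, are defined by the loss of SMARCB1 or, rarely, SMARCA4, and are poorly differentiated, with mesenchymal, epithelial and neural markers described in the same tumour.

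The values are counts of footprints on coding sequences. GFP DMSO replicate 1 held 12001296 counts on genes and replicate 2 held 14000039, in a series whose libraries ranged from 5924443 to 14000039. Counts were scaled to CPM, the counts of a gene per 1000000 counts on all genes of the library, which states what share of all footprints a gene held. Levels of different genes were compared only per length, as TPM, computed here as counts per coding length and scaled to sum to 1000000. With 0 counts, up to 3 counts are allowed, or 0.250 CPM in replicate 1 and 0.214 CPM in replicate 2; such limits cover counting error only, since the libraries hold no molecular identifiers. RNA-seq was not analysed here, so each value is ribosome occupancy and not translation efficiency. In such bulk libraries, fewer cells of a type and less RNA per cell cannot be told apart.

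The lack of SMARCB1 was checked on the gene itself, which lies on chr22:23786931-23838009 (GRCh38). SMARCB1 had 0 counts in GFP DMSO replicate 1 and 0 in replicate 2, and 0 in both SMARCB1 DMSO and both GFP Dox libraries. Footprints of the induced construct were counted under the gene, with 2553 and 1750 counts in the SMARCB1 Dox libraries, so a count of 0 is not a gap in the counting. The GFP DMSO libraries thus held no SMARCB1 footprints, as described for G401 cells without induced SMARCB1. This check cannot tell them from the GFP Dox or SMARCB1 DMSO libraries.

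The replicates were close, but differed by more than counting noise. The chi-square statistic per degree of freedom was 21.4 over 11390 genes, so the files are not copies of the same library. A gene was called present when it had at least 1 CPM in both replicates, absent when it had 0 counts in both, and low otherwise. Across the 10354 present genes, Pearson's r of log2 CPM was 0.986 and Spearman's rho was 0.988. These are descriptions across genes, which are not independent replicates. Of the present genes, 89.6% lay within 1.5-fold of each other and 98.3% within 2-fold. The median difference was 0.38 on the log2 scale for genes from 1 to 10 CPM, 0.21 from 10 to 100 CPM, and 0.16 from 100 to 1000 CPM. Low genes were thus the least precise.

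Among the 2363 present genes above 100 CPM, 5 differed over 2-fold between the replicates. The cytoskeletal linker MACF1 had 1994 CPM in replicate 1 and 4303 in replicate 2, PLEC, another such linker, 617 and 1289, and the spectrin SPTBN1 883 and 1832. These genes have long coding sequences and were all higher in replicate 2. ZFP36L1, which binds AU-rich mRNA elements, was lower in replicate 2, with 167 and 82.6 CPM.

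The ratio of the replicates followed base composition. Spearman's rho between the GC content of the coding sequence and the log2 ratio of replicate 2 over replicate 1 was 0.50 across 10354 genes. The genes were split by GC content into 4 sets of equal size. In the set with the lowest GC content, 32.6% to 44.7%, the median log2 ratio was -0.18, and in the next set it was -0.04. It was 0.13 in the set after that and 0.26 in the set with the highest GC content, 59.3% to 79.7%. GC-rich genes thus tended to be higher in replicate 2. Values of genes below are given for both replicates or as mean and SD, and an SD does not show which replicate was higher. Coding length gave a rho of 0.12. What sets this difference was not tested.

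**Figure D1:**
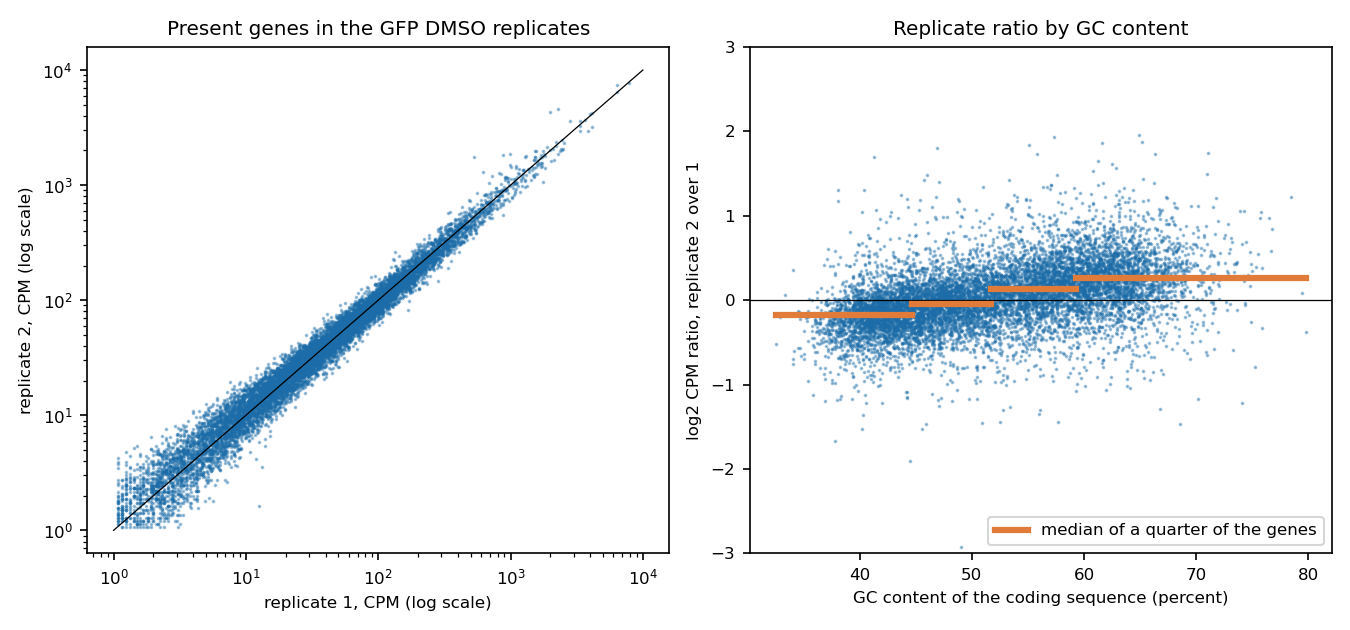
Left, CPM of the 10354 present genes in GFP DMSO replicate 1 and replicate 2, both on log scales, with the line of equal values. Right, the log2 ratio of replicate 2 over replicate 1 against the GC content of the coding sequence; the orange bars, the medians of 4 sets of equal size, go from -0.18 to 0.26.

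Of the 20719 genes listed, 10354 (49.97%) were present, 7599 (36.7%) were absent and 2766 (13.4%) were low. At least 1 count was seen for 12403 genes in replicate 1 and 12662 in replicate 2. The present genes held 99.9% of the counts in each replicate. Footprints were concentrated on a small number of them. Ranked by mean CPM, 742 genes held 50% of all counts, with 744 in replicate 1 and 734 in replicate 2. The top 10 genes held 4.70%, the top 100 genes 18.9% and the top 1000 genes 56.5%. The replicates shared 7 of their top 10 genes, 83 of their top 100 and 918 of their top 1000.

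The gene with the most footprints was NCL (chr2), which encodes nucleolin, a nucleolar protein of ribosome production, with 7811 CPM in replicate 1 and 7779 CPM in replicate 2. COL11A1, a chain of the fibrillar collagen of cartilage and stroma, followed with 6407 and 7472 CPM. The cytosolic chaperone HSP90AB1 had 6324 and 6447 CPM. These 3 genes stood above all others in both replicates. The RNA-binding protein HNRNPA2B1 had 4125 and 4217 CPM, the glycolytic enzyme PKM 3956 and 4147, and the tropomyosin TPM1 3675 and 3671. PABPC1, which binds the poly(A) tails of mRNAs, had 3362 and 3620 CPM. The stress-inducible cytosolic chaperone HSP90AA1 had 4132 and 3213 CPM, and its counterpart of the endoplasmic reticulum (ER), HSP90B1, had 3882 and 2945. Both were lower in replicate 2, and the order of genes from HNRNPA2B1 downward changed between the replicates. The mitochondrially encoded MT-ND6 was the least even of the top 10, with 2277 and 4546 CPM. MT-ND6 lies on the opposite strand from the other coding genes of the mitochondrial genome and shares 0 coding bases with another annotated gene. No source used here states whether the counting used strand, so reads from the strand opposite MT-ND6 may have been counted under it.

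**Figure D2:**
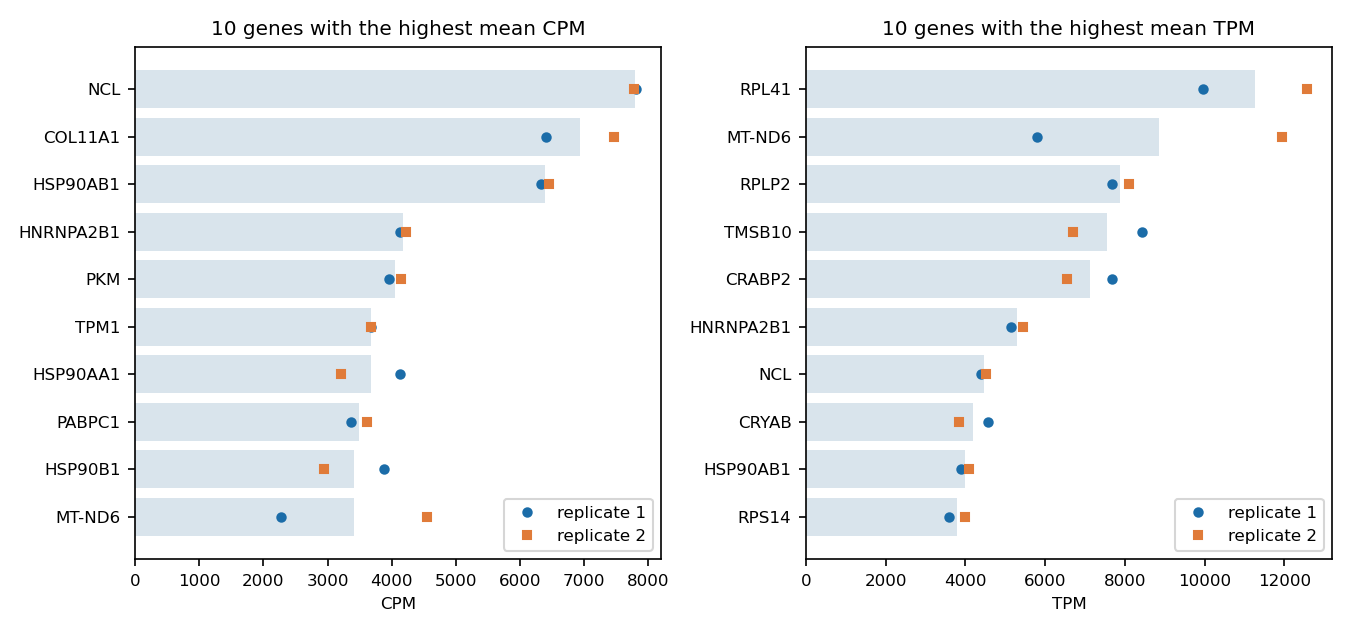
The 10 genes with the highest mean CPM (left) and the 10 with the highest mean TPM (right) in the GFP DMSO replicates, where bars are means and points the replicates. NCL, with 7811 and 7779 CPM, leads by share of footprints and RPL41, with 11256 ± 1850 TPM (SD, n = 2), leads per coding length.

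Per coding length, short genes came to the front. Among genes with at least 100 counts in both replicates, the highest TPM was that of RPL41, a ribosomal protein of the large subunit, at 11256 ± 1850 TPM (SD, n = 2) from 6714 and 9563 counts. MT-ND6 followed at 8866 ± 4357 TPM, RPLP2, a protein of the ribosomal stalk, at 7882 ± 297 TPM, and TMSB10, which binds actin monomers, at 7552 ± 1226 TPM. The SD of MT-ND6 spans the values of the genes next to it, so its place in this order is not fixed. CRABP2, which carries retinoic acid to the nucleus, stood at 7114 ± 797 TPM. HNRNPA2B1 had 5289 ± 209 TPM, NCL 4460 ± 93.4 and HSP90AB1 3989 ± 149. CRYAB, a small heat shock protein, had 4199 ± 521 TPM and RPS14, a ribosomal protein of the small subunit, 3778 ± 285. HNRNPA2B1, NCL, HSP90AB1 and MT-ND6 were thus among the top 10 by both measures. TPM divides by coding length, so long genes lose the advantage that they have in counts. The 100 genes with the highest TPM had a median coding length of 724.5 bases (696.5 in replicate 1 and 763 in replicate 2). For the 100 genes with the highest CPM it was 1938 bases. The 8085 genes with at least 100 counts in both replicates, from which the genes ranked by TPM were drawn, had a median of 1657 bases. The median GC content of the 100 genes with the highest TPM was 50.02%, near the 50.5% of those 8085 genes. Of these 100 genes, 17 encode ribosomal proteins, 7 nuclear-encoded subunits of the respiratory chain or ATP synthase, and 7 splicing or RNA-binding proteins.

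mRNAs of the translation machinery are known for a 5′ terminal oligopyrimidine tract, a C at the start of transcription followed by a run of pyrimidines, through which their translation responds to growth signals. The start sites of the 10 genes with the highest TPM are shown for that reason, as far as RefSeq's promoter table (GRCh38.p14) holds an entry, which it does for 8 of them. Each run holds 40 bases before the annotated start and 20 bases from it, 5′ to 3′ on the strand of the gene. Capitals mark the tract searched for: a C followed by at least 4 bases that are each C or T, beginning within 5 bases of the annotated start, on the strand of the gene only. The windows are RPL41 at chr12:56116593-56116652 (plus strand), RPLP2 at chr11:809927-809986 (plus), TMSB10 at chr2:84905616-84905675 (plus), RPS14 at chr5:150449720-150449779 (minus), HSP90AB1 at chr6:44246154-44246213 (plus), CRABP2 at chr1:156705765-156705824 (minus), HNRNPA2B1 at chr7:26200727-26200786 (minus) and NCL at chr2:231464465-231464524 (minus).
RPL41: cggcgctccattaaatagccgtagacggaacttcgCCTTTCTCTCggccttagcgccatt
RPLP2: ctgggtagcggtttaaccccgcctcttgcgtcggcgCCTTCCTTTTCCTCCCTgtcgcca
RPS14: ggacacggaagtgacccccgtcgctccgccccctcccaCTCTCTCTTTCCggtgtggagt
TMSB10: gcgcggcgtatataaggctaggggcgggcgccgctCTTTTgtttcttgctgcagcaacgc
HSP90AB1: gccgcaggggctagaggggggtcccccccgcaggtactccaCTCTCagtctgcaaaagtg
CRABP2: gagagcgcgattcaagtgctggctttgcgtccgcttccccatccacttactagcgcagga
HNRNPA2B1: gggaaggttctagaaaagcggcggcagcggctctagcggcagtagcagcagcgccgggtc
NCL: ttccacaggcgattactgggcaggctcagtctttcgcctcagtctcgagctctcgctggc

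The tract was found at 5 of these 8 start sites, with 10 bases at RPL41, 17 at RPLP2, 12 at RPS14 and 5 at both TMSB10 and HSP90AB1. It was not found at CRABP2, HNRNPA2B1 and NCL. A match is a description of the letters, and its absence says only that no such tract begins within 5 bases of the annotated start. Of all 27305 promoters in the table, 5749 (21.1%) held the tract, and of the 8537 present genes with an entry, 1971 (23.1%) did. Among the present ribosomal protein genes it was found in 51 of the 65 with an entry (78.5%). The present translation factor genes held it in 20 of 62 (32.3%), aminoacyl-tRNA synthetase genes in 10 of 32 (31.3%) and genes of cytosolic and mitochondrial chaperones in 24 of 70 (34.3%). Ribosome biogenesis genes, with 27 of 125 (21.6%), and splicing and RNA-binding genes, with 39 of 185 (21.1%), lay near the share of all promoters. For the 100 genes with the highest TPM the check is void, because only 78 have an entry. Protein composition was not computed here.

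To see which functions held most footprints, genes were sorted by symbol into 29 classes that do not overlap. The classes hold 4082 genes, of which 3001 were present, and together took 53.6% of the counts in replicate 1 and 54.7% in replicate 2. The largest share went to splicing and RNA-binding proteins, with 5.96% in replicate 1 and 6.09% in replicate 2. Of its 227 genes, 210 were present, led by HNRNPA2B1, HNRNPM (2105 and 2053 CPM), HNRNPU (1593 and 1650 CPM) and HNRNPD (1730 and 1462 CPM), all packaging or processing factors of nuclear RNA. The actin cytoskeleton held 3.56% and 4.48%, and cytosolic and mitochondrial chaperones 3.91% and 3.71%. The order of these 2 classes changed between the replicates. Chromatin and transcription regulators came next in both, with 3.35% and 3.34%. The share of the leading class in the other 6 libraries ranged from 5.42% to 6.69%, around that of GFP DMSO.

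**Figure D3:**
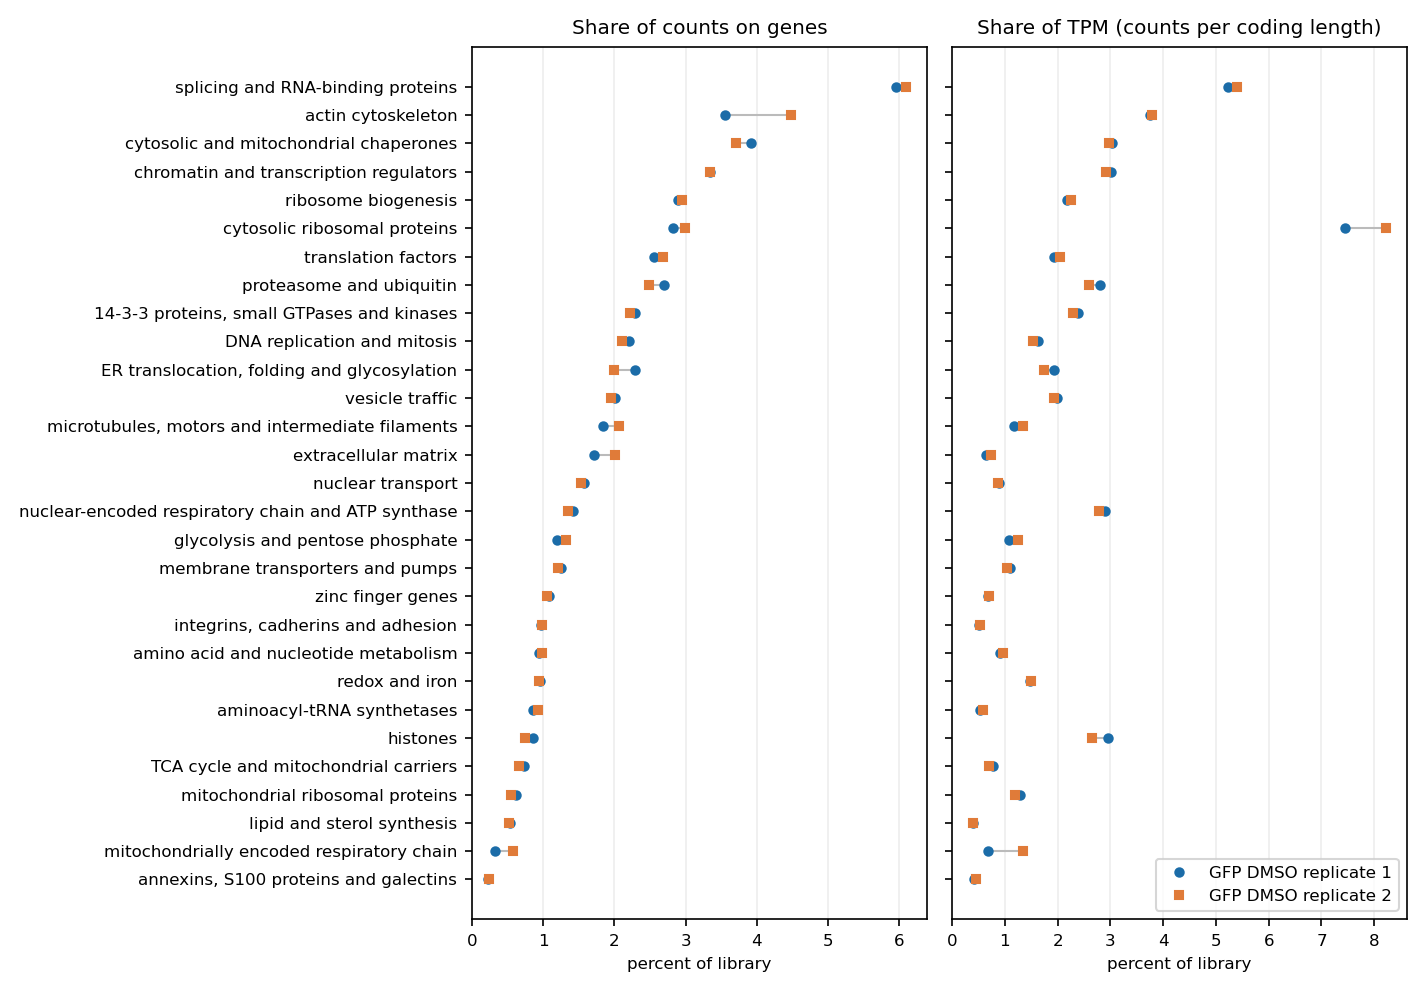
Share of all counts (left) and of all TPM (right) held by each of 29 function classes, in percent of the library, for GFP DMSO replicate 1 (circles) and replicate 2 (squares). Splicing and RNA-binding proteins lead by counts, with 5.96% and 6.09%, and cytosolic ribosomal proteins lead per coding length, with 7.44% and 8.23%.

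The genes that build and run ribosomes held more footprints together than any of these classes alone. Cytosolic ribosomal proteins, ribosome biogenesis, translation factors and aminoacyl-tRNA synthetases together took 9.13% in replicate 1 and 9.57% in replicate 2. Cytosolic ribosomal proteins held 2.82% and 2.995% of counts but 7.44% and 8.23% of TPM, where they ranked first of the 29 classes in both replicates. Of the 87 genes in that class 80 were present, led by RPLP2 (1985 and 2024 CPM), RPS6 (1790 and 1878 CPM), RPL11 (1726 and 1567 CPM) and RPL5 (1671 and 1514 CPM). Ribosomal protein genes have many near-identical pseudogenes, and reads that aligned to several places were not counted, so these values are uncertain and may be too low. Ribosome biogenesis held 2.89% and 2.95%, in which NCL was followed by NPM1, the nucleolar histone chaperone nucleophosmin (898 and 964 CPM), NOLC1 (772 and 944 CPM) and EBNA1BP2 (823 and 808 CPM). Translation factors held 2.56% and 2.69%, with 74 of 79 genes present. After PABPC1 they were led by EEF2, which moves the ribosome along the mRNA, with 2839 and 3612 CPM, and by EIF4G2, an initiation factor, with 1554 and 1428 CPM. EEF1A1, which brings aminoacyl-tRNA to the ribosome, had 561 and 859.5 CPM, a value that is uncertain for the same reason as those of the ribosomal proteins. Aminoacyl-tRNA synthetases held 0.858% and 0.932%, with 39 of 40 genes present and NARS1 (949 and 1071 CPM) and GARS1 (681 and 789 CPM) at the top.

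Chaperones formed another large group. Those of the cytosol and mitochondria, together with the folding and translocation genes of the ER, held 6.20% in replicate 1 and 5.71% in replicate 2. After the HSP90 genes came the mitochondrial chaperones HSPD1 (3374 and 3241 CPM) and HSPA9 (2428 and 2482 CPM) and the constitutive HSPA8 (2188 and 2185 CPM). In the ER, the lectin chaperones CALR (3354 and 2976 CPM) and CANX (2488 and 2076 CPM) followed HSP90B1, and the disulfide isomerase PDIA3 had 1515 and 1181 CPM. The ER class was lower in replicate 2, with 2.29% and 1.998% of counts, and 51 of its 54 genes were present. Proteasome and ubiquitin genes held 2.69% and 2.49%, led by VCP, the segregase that extracts ubiquitinated proteins (1135 and 1271 CPM), and the proteasome subunits PSMD14 (1059 and 819 CPM) and PSMB4 (963 and 850.1 CPM).

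Cytoskeletal genes held 5.40% in replicate 1 and 6.55% in replicate 2. In the actin class, TPM1 and MACF1 were followed by VCL, which couples integrins to actin (1886.5 and 2152 CPM), and ACTB (1751 and 1961 CPM), a gene with near-identical copies. The class has a median GC content of 53.4% among its present genes. Its members MACF1 (GC content 46.5%) and IQGAP1 (46.0%, with 986 and 1880 CPM) were both higher in replicate 2. So were VCL (52.4%) and ACTB (60.6%). CFL1 (55.2%, with 1837 and 1420 CPM) and TMSB10 (52.3%, with 833 and 640 CPM) were lower. Why the share of the class differed between the replicates was not tested. In TPM, which gives long genes less weight, the shares of the actin class were 3.75% and 3.80%. Intermediate filament genes led the microtubule class. KRT8 had 2208 and 2374 CPM, its partner KRT18 had 1544 and 1985 CPM, and VIM, the filament of mesenchymal cells, had 1502 and 1668 CPM. The heavy chain of dynein, DYNC1H1, had 902 and 1184 CPM.

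The extracellular matrix held 1.71% and 2.01% of counts, although only 66 of its 167 genes were present. COL11A1 alone took 6407 and 7472 CPM, followed by the fibrillar collagens COL3A1 (1284 and 1756 CPM), COL1A1 (1015 and 1432 CPM) and COL1A2 (693 and 1048 CPM). All 4 were higher in replicate 2, and the present genes of the class had a median GC content of 58.6%. Per coding length the class held 0.644% and 0.743% of TPM. Integrins, cadherins and adhesion genes held 0.966% and 0.985%, with 35 of 94 genes present. The atypical cadherin FAT1 had 1715 and 1752 CPM, the desmosomal plaque protein DSP 1539 and 1742, the integrin subunit ITGB1 1710.0 and 1550.2 and its partner ITGAV 1209.5 and 1134.

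DNA replication and mitosis held 2.21% and 2.10% of counts, with 125 of 132 genes present. CENPF, a kinetochore protein, had 1370.0 and 1381 CPM, the cohesin subunit RAD21 1496 and 1207, the replicative helicase subunit MCM7 783 and 872.5, and the mitotic cyclin CCNB1 853 and 666. Nuclear transport held 1.57% and 1.53%, led by the import receptor KPNB1 (1263 and 1340.4 CPM) and the GTPase RAN (1431 and 1104 CPM). Histone genes held 0.857% and 0.748% of counts and 2.95% and 2.64% of TPM. H4C2 led them with 784 and 620 CPM, and its values are uncertain because histone genes have near-identical copies. Amino acid and nucleotide metabolism held 0.943% and 0.988%, led by thymidylate synthase, TYMS (943 and 757 CPM).

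Energy genes were divided between glycolysis and mitochondria. Glycolysis and the pentose phosphate pathway held 1.20% and 1.33% of counts from 29 present genes of 33. PKM was followed by ENO1 (1670 and 1719 CPM), GAPDH (1303 and 1789 CPM) and LDHA (1461 and 1426 CPM). The nuclear-encoded respiratory chain and ATP synthase held 1.42% and 1.36% of counts and 2.90% and 2.79% of TPM, led by the ATP synthase subunits ATP5F1A (2524 and 2307 CPM) and ATP5F1B (1691 and 1811 CPM). All 13 mitochondrially encoded genes were present and held 0.318% and 0.576%, with MT-ND6 supplying most of that share. MT-CO1, a subunit of cytochrome oxidase, had 433 and 639 CPM, and MT-CYB 130.1 and 155.5. Mitochondrial energy genes of nuclear, mitochondrial and carrier classes and mitochondrial ribosomal proteins together held 3.09% and 3.15%. Membrane transporters held 1.25% and 1.21% from 193 present genes of 496, among them the glucose transporter SLC2A1 with 620 and 677 CPM. Zinc finger genes were many but little occupied, with 434 of 599 present and 1.08% and 1.06% of counts.

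Of the other mSWI/SNF subunits, the alternative ATPases went apart. SMARCA4 had 5085 and 7971 counts, or 121 ± 27.9 TPM (SD, n = 2). SMARCA2, its paralog, had 0 counts in both replicates. The core subunit SMARCC1 was the most occupied of those examined per coding length, with 10049 and 11801 counts and 344 ± 9.84 TPM, and its paralog SMARCC2 had 42.8 ± 6.55 TPM. Subunits particular to the BAF form of the complex were present, with ARID1A at 71.0 ± 1.56 TPM, ARID1B at 23.7 ± 2.03 and DPF2 at 20.8 ± 5.16. Those of the PBAF form were present too, with PBRM1 at 48.7 ± 0.591 TPM, ARID2 at 25.6 ± 1.42 and BRD7 at 14.01 ± 1.52. In the non-canonical form, which contains no SMARCB1 in normal cells, BRD9 had 32.4 ± 4.09 TPM and BICRA (also known as GLTSCR1) 1.59 ± 0.435 TPM, from 80 and 61 counts. Footprints were thus seen on 11 of the 13 subunit genes examined, all but SMARCB1 and SMARCA2.

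Among tumour suppressors, the neurofibromatosis gene NF2 had 2572 and 3016 counts and 144 ± 3.97 TPM, and RB1, which holds back entry into S phase, had 738 counts in each replicate and 25.9 ± 2.20 TPM. CDKN2A, which encodes an inhibitor of cyclin-dependent kinases, was low, with 7 and 11 counts. The other cell cycle inhibitor CDKN1A was present, with 180 and 306 counts and 51.0 ± 14.6 TPM. The drivers CCND1, EZH2, AURKA and MYC were all present. CCND1, the cyclin of early G1, had 163 ± 10.6 TPM, AURKA, a mitotic kinase, 81.8 ± 1.94, MYC 80.4 ± 12.6, and EZH2, the methyltransferase of the Polycomb complex, 67.5 ± 1.52. MYCN, the paralog of MYC that is expressed in many embryonal tumours, had 1 and 0 counts.

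Lineage was read from 24 lists of marker genes with 241 members. Of these, 54 (22.4%) were present, 57 were low and 130 were absent. More than 50% of members were present in 3 lists, and in 5 lists none was. The lists with most members present were oncofetal genes with 7 of 11, smooth muscle with 4 of 7, renal stroma and pericyte with 6 of 11, and fibroblast and mesenchyme with 10 of 20. These shares, from 50% to 63.6%, come from lists of 7 to 20 genes. They are not far from the 49.97% present of all 20719 genes listed, so they are descriptions and do not single out a lineage. The lists with none present were cartilage and bone, endothelium, blood, endoderm and cancer-testis genes. By tissue, 13 of 58 kidney markers, 10 of 46 neural markers, 6 of 25 muscle markers, 10 of 28 mesenchymal markers and 9 of 30 stem cell and tumour markers were present.

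**Figure D4:**
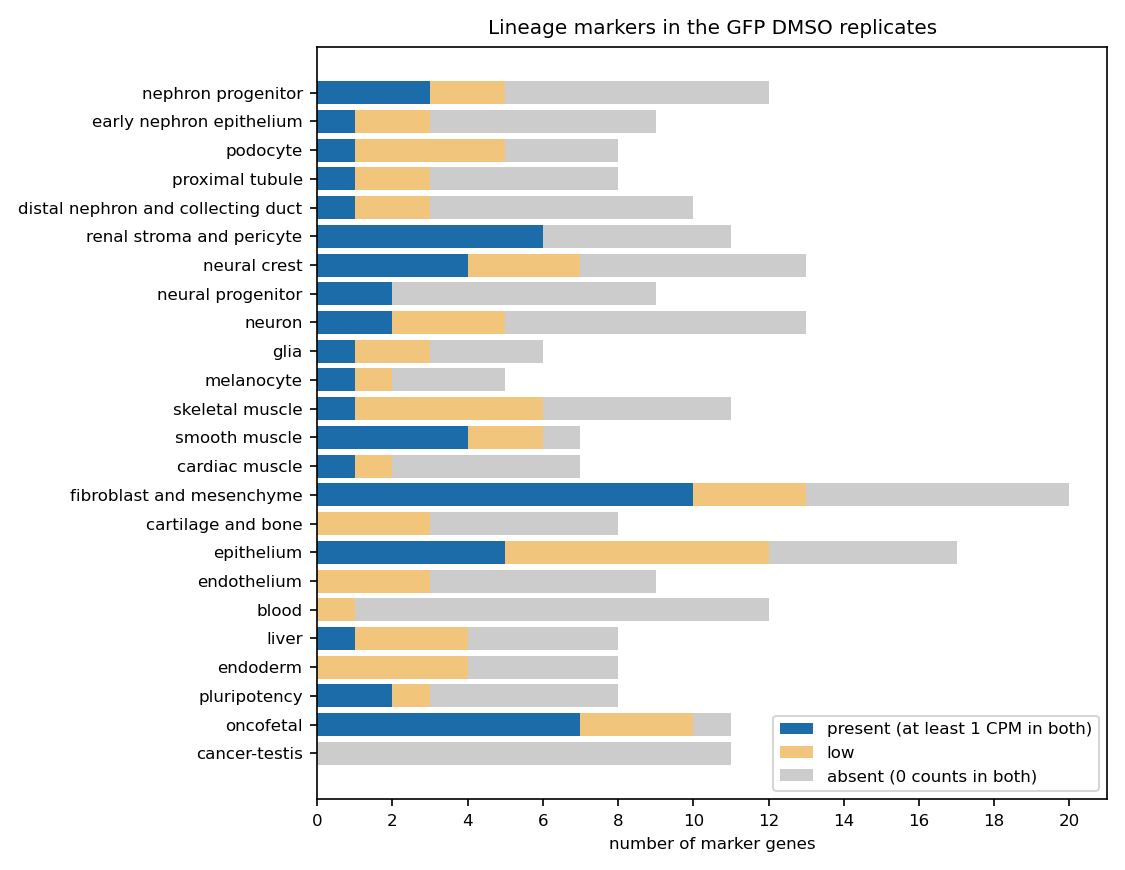
Number of marker genes of each lineage list that were present (at least 1 CPM in both GFP DMSO replicates), low, or absent (0 counts in both). Fibroblast and mesenchyme has the most present members, 10 of 20, and the cancer-testis list has 11 of 11 absent. Of all genes listed, 49.97% were present and 36.7% absent.

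In the mesenchymal list, summed CPM was 5019 in replicate 1 and 6389 in replicate 2. VIM was its most abundant member per length, with 1395 and 1602 TPM. COL3A1 had 470.2 ± 114 TPM, S100A4, a calcium-binding protein of motile cells, 413 ± 70.3, COL1A1 366 ± 96.6 and COL1A2 289 ± 90.0. The matricellular protein SPARC had 343 ± 57.5 TPM and the transcription factor ZEB1 45.7 ± 1.32, while its paralog ZEB2 had 0 and 1 counts. Several defining members had 0 counts in both replicates, namely the fibronectin gene FN1, the cadherins CDH2 and CDH11, FAP, LUM, DCN and PRRX1. Collagens and vimentin were thus occupied without fibronectin or N-cadherin. The cartilage and bone list, by contrast, summed to 0.49995 and 0.714 CPM, with ACAN, COL2A1, SOX5, RUNX2 and IBSP at 0. That list does not hold COL11A1, a collagen of cartilage and stroma, which had 6407 and 7472 CPM.

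Epithelial markers were split in the same way. The keratins of simple epithelia, KRT8 and KRT18, had 1712 ± 128 and 1858 ± 372 TPM and DSP had 257 ± 28.6 TPM. These genes made up nearly all of the list's summed CPM of 5298 and 6106.5. MUC1 (2.42 ± 0.504 TPM) and the tight junction protein OCLN (1.93 ± 0.523 TPM) were present at low levels. CDH1, the cadherin that defines epithelia, had 2 and 1 counts, EPCAM 4 and 11, KRT19 0 and 1, and KRT5, KRT14, CLDN3, GRHL2 and OVOL1 had none. The coding sequences of KRT8 and KRT18 each overlap another annotated gene over 62 bases, where reads may not have been assigned.

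Of the kidney markers, 22.4% were present, the same share as over all 241 markers. Of the nephron progenitor list, MEOX1, a homeobox gene of early mesoderm, was the most abundant, with 115 and 148 TPM. PAX2, a regulator of kidney formation, had 48 and 107 counts (5.14 ± 2.38 TPM) and HOXA11 74 and 50 counts (6.53 ± 2.31 TPM). CITED1 (18 and 11 counts) was low, and it shares 559 coding bases with another annotated gene. The genes that define the progenitor, SIX2, EYA1, SALL1, OSR1 and WT1, had 0 counts in both replicates, as did HOXD11 and GDNF. In the early nephron list, WNT4 was present at 46 and 80 counts, while PAX8, LHX1, JAG1 and CDH6 had none.

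In each list of a mature nephron segment, 1 gene was present. SYNPO, an actin-binding protein of podocyte foot processes that other cells also express, had 434 and 627 counts, while NPHS1, a slit diaphragm gene, had 4 and 3. In the proximal tubule list GGT1 had 67 and 100 counts, LRP2 0 and 1, CUBN 0 and 2, and SLC34A1, SLC22A6, SLC5A2, AQP1 and SLC3A1 had none. In the distal list, SCNN1A, a subunit of the epithelial sodium channel, had 273 and 414 counts. UMOD, SLC12A1, CALB1, AQP2, AQP3, GATA3 and FOXI1 had none. In the renal stroma and pericyte list, 6 of 11 markers were present. The growth factor receptor PDGFRB led per length with 91.4 ± 7.71 TPM, followed by the homeobox gene MEIS2 with 58.8 ± 5.53 TPM and PDGFRA with 18.8 ± 0.185 TPM. RGS5 (9.43 ± 0.0164 TPM), the proteoglycan gene CSPG4 (8.28 ± 3.18 TPM) and FOXD1 (1.41 ± 0.304 TPM) were present too. TBX18, TCF21, MEIS1 and NTN1 had 0 counts.

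Among neural markers, 2 of 9 members of the progenitor list were present. MSI1, an RNA-binding protein of neural stem cells, had 128 ± 0.767 TPM and the intermediate filament gene NES had 96.6 ± 20.2 TPM. SOX1, SOX2, PAX6, OLIG2, HES5 and FABP7 of that list had 0 counts in both replicates. In the neural crest list, MSX1 had 50.7 ± 14.3 TPM, TFAP2A 36.5 ± 4.85, ETS1 5.35 ± 1.13 and the receptor ERBB3 3.75 ± 0.717. SOX10, which marks migrating crest cells, had 0 and 1 counts, and FOXD3, TFAP2B, SNAI2, TWIST1, SOX9 and PAX3 had none. Of 13 neuronal genes only TUBB3 (63 and 81 counts) and the synaptic vesicle protein SYP (33 and 31 counts) were present, and TUBB3 shares 1293 coding bases with another annotated gene. Among the glial genes MBP had 16.1 ± 2.85 TPM and GFAP, S100B and AQP4 had none. MITF, the regulator of the melanocyte list that other cells also use, had 122.8 ± 11.5 TPM, whereas the pigment genes TYR, DCT and MLANA had 0 counts and PMEL 7 and 8.

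Of the muscle markers 6 of 25 were present, a share near the 22.4% of all markers, and 4 of these 6 were in the smooth muscle list. TAGLN, an actin-binding protein of smooth muscle, had 621 ± 139 TPM, and SMTN (12.8 ± 2.30 TPM), CNN1 (5.17 ± 0.200 TPM) and LMOD1 (1.95 ± 0.124 TPM) were present. ACTA2, the smooth muscle actin, was low with 7 and 8 counts, MYH11 had 2 and 0, and the coactivator MYOCD had none. TNNT2, a troponin of the heart, had 1539 and 1990 counts and 148 ± 14.3 TPM, beside 0 counts for NKX2-5, TBX5, MYH7, ACTC1 and NPPA. In the skeletal muscle list only MYH3, an embryonic myosin, was present, with 25 and 34 counts. MYOD1, MYF5, MYF6, MYOG and MYH8 had 0 counts, DES had 4 and 2 and PAX7 0 and 1.

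Stem cell and fetal genes included some of the most occupied markers. The chromatin protein HMGA1 led the oncofetal list with 710.3 ± 205 TPM, followed by the surface proteoglycan gene GPC3 with 633 ± 5.33 TPM. The mRNA-binding proteins IGF2BP1, IGF2BP3 and IGF2BP2 had 299 ± 30.2, 116 ± 12.1 and 51.0 ± 3.31 TPM. HMGA2 had 144 ± 35.0 TPM and TRIM71 32.9 ± 4.52. IGF2, the fetal growth factor, had 0 counts in both replicates, and LIN28B, PLAG1 and DLK1 were low. LIN28A, which blocks maturation of let-7, was present with 309 ± 25.03 TPM, as was the transcription factor SALL4 with 35.4 ± 10.4 TPM. The pluripotency factors POU5F1 and NANOG had 0 counts, as did DPPA4, TDGF1 and ZFP42. LIN28A, SALL4 and 7 of 11 oncofetal genes were thus present, beside 0 counts for POU5F1 and NANOG.

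Markers of other tissues bear on what else the cultures could hold. The blood list summed to 0 CPM in replicate 1 and 0.143 CPM in replicate 2, from 2 counts of ITGB2, and its 11 other members, PTPRC among them, had none. The endothelial list summed to 1.08 and 0.357 CPM, with KDR, TEK, TIE1, ERG, CLDN5 and EMCN at 0. The endoderm list summed to 1.75 and 0.857 CPM, with SOX17, GATA4, CDX2 and PDX1 at 0. In the liver list CEBPA was present with 61 and 96 counts, but ALB, AFP, SERPINA1 and FOXA2 had none. All 11 cancer-testis genes had 0 counts in both replicates. The endoderm sum came mostly from EOMES, a T-box gene also active outside endoderm, with 17 and 12 counts.

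To see which of these markers were at another level in the other uninduced line, GFP DMSO was compared with SMARCB1 DMSO. Both lines lack SMARCB1 and both were given DMSO, so this is a comparison of 2 engineered lines and not of treatments. The construct, the history of each line and the preparation of its libraries cannot be told apart. With edgeR's quasi-likelihood test over 11097 genes, 552 genes (4.97%) were called at a Benjamini-Hochberg adjusted p below 0.05 and a fold above 2. The calls split into 276 genes (2.49%) with higher and 276 (2.49%) with lower values in the GFP line. The number called was 324 without GFP DMSO replicate 1, 299 without GFP DMSO replicate 2 and 288 when each library had to hold 10 counts or more, so the share of 4.97% depends on these choices. Of the 241 lineage markers, 66 passed the filter on low counts and were tested, and of these 13 (19.7%) were called, 7 higher and 6 lower in GFP DMSO. That share is above the 4.97% of all genes, but a marker that passed the filter only through the line in which it is high had to differ, so the count is a description and supports nothing about the markers as a set. The median log2 difference of the 66 markers was 0.04, or 0.06 with genes at 0 in a line set to their lower bound and COL2A1 left out, beside -0.02 for all genes tested. The called markers came from several lists, not from a lineage as a whole.

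PDGFRA, a receptor of mesenchymal growth factors, had 48.2 and 47.2 CPM in GFP DMSO and 0.169 and 0.511 CPM in SMARCB1 DMSO. PDGFRA had 578 and 661 counts in GFP DMSO but 1 and 7 in SMARCB1 DMSO, so it passed the filter on low counts through other libraries. It was not tested when a minimum count was asked of every library. Its call is therefore a description, and no p-value is given. The log2 difference was 6.77 (SE 0.49), higher in 2 of 2 libraries. Without SMARCB1 DMSO replicate 2 the difference was 8.02, against a library with 1 count, and without replicate 1 it was 6.39. The values of PDGFRA are uncertain, since it shares 1530 coding bases with another annotated gene. COL1A1 had 1015 and 1432 CPM in GFP DMSO against 46.8 and 41.6 CPM, a log2 difference of 4.72 (SE 0.31), higher in 2 of 2 libraries (edgeR's quasi-likelihood test, Benjamini-Hochberg adjusted p = 3e-07). S100A4 had 82.5 and 101.6 CPM against 1.52 and 2.63, a log2 difference of 5.29 (SE 0.49), which was 5.90 without SMARCB1 DMSO replicate 2. For each of these genes the values of the lines did not overlap, which largely follows from their choice as called genes. COL3A1 and COL1A2 were not called, with 1220.4 and 936 CPM and 724 and 1110 CPM in SMARCB1 DMSO. PAX2 had 48 and 107 counts against 0 and 11, a log2 difference of 3.40 (SE 0.79). MBP, SCNN1A and MSI1 were higher in GFP DMSO by 2.50 (SE 0.43), 2.03 (SE 0.35) and 1.46 (SE 0.23) on the log2 scale.

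The markers lower in GFP DMSO included a myosin and a matrix gene. MYH8, a perinatal myosin, had 0 counts in both GFP DMSO libraries and 91 and 272 in SMARCB1 DMSO, so it was at least 61.4-fold lower than in SMARCB1 DMSO replicate 1 and at least 79.4-fold lower than in replicate 2, taking for 0 counts the higher of the limits per library, 0.250 CPM. The Notch ligand gene JAG1 had 0 and 0 counts against 9 and 44, at least 6.08-fold lower than in replicate 1 and at least 12.8-fold lower than in replicate 2 by the same limit. SPARC had 261 and 199 CPM in GFP DMSO and 2184 and 2978 in SMARCB1 DMSO, a log2 difference of -3.56 (SE 0.36), lower in 2 of 2 libraries (edgeR's quasi-likelihood test, Benjamini-Hochberg adjusted p = 1.35e-05). ETS1, a transcription factor of the crest and mesenchyme, had 5.25 and 6.86 CPM against 55.2 and 85.7, a log2 difference of -3.62 (SE 0.35). FOXD1 differed by -2.96 (SE 0.52) and RGS5 by -1.65 (SE 0.41), both from the renal stroma list, in which PDGFRA went the other way. Of the 13 calls, 9 held in every alternative that tested the gene. Among those 9, PDGFRA, S100A4 and MYH8 were not tested when at least 10 counts were asked of every library. The alternatives refit the same libraries, and the share of all called genes that held was not computed, so this count is a description only. PAX2 was lost without GFP DMSO replicate 2 (log2 difference 2.90) or without SMARCB1 DMSO replicate 1 (2.72). Without SMARCB1 DMSO replicate 2 its call held, but the library left is at 0 counts, so no fold is given. FOXD1 was lost without GFP DMSO replicate 1 (log2 difference -2.79). RGS5 was lost without GFP DMSO replicate 1 (-1.68), without GFP DMSO replicate 2 (-1.61) or without SMARCB1 DMSO replicate 2 (-1.31), all in the direction of the full fit. JAG1 was lost without the same libraries, again in the same direction.

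**Figure D5:**
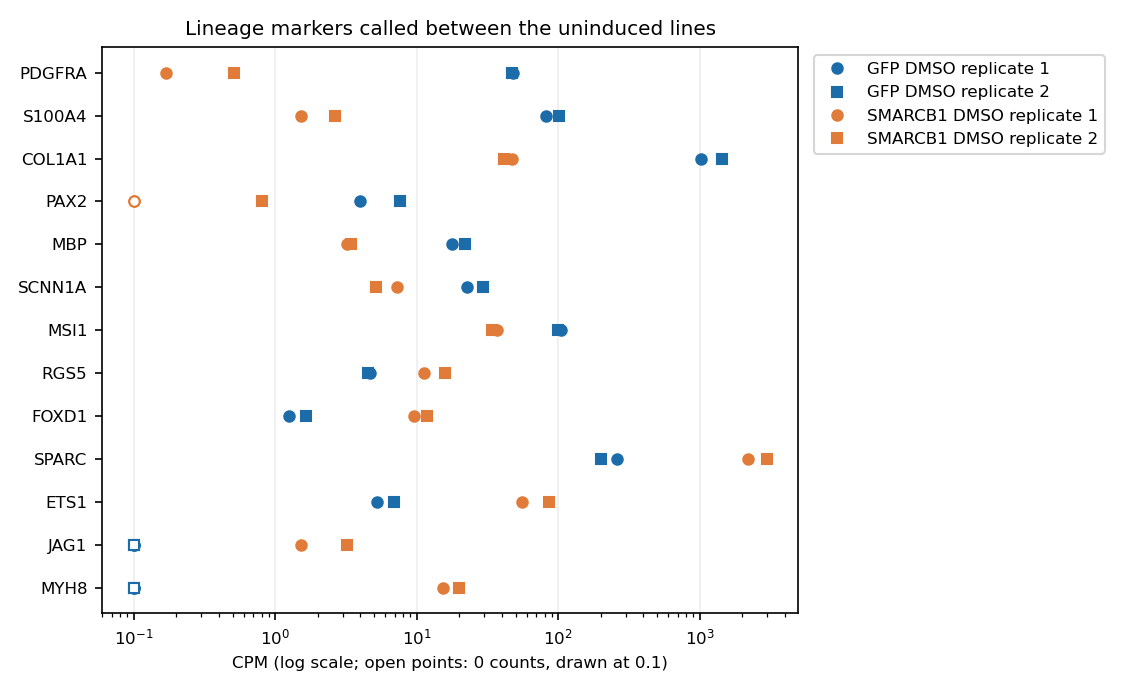
CPM on a log scale of the 13 lineage markers called between the uninduced lines, in GFP DMSO (blue) and SMARCB1 DMSO (orange), with replicate 1 as circles, replicate 2 as squares and 0 counts drawn as open points at 0.1. The 13 genes were chosen because they were called, so the separation of the lines in the plot largely follows from that choice. Of all genes tested, 4.97% were called with all 8 libraries in the fit.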

How the data were processed

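Counts per gene were deposited by the authors, who made footprint libraries with the RiboLace gel free kit, aligned reads with STAR to hg38 and counted reads that lay wholly on coding sequences with HTSeq on GENCODE 42. Versions of these tools and the strand option are not given in the sources used here. Reads that aligned to several places were left out, so genes with near-identical copies (ribosomal proteins, EEF1A1, actins, tubulins, histones, calmodulins) are uncertain, as are overlapping genes. The 5 summary entries of each file, which name no gene, stayed out of all totals; of uniquely aligned reads, 38.2% and 40.8% lay on no feature and 1.55% and 1.45% were ambiguous in GFP DMSO replicates 1 and 2. Reads that were not unique made up 25.6% and 29.3% of all.

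Of 20719 gene IDs, 20408 matched GENCODE 44, which gave symbols and coding lengths, and 311 did not, none with a count in GFP DMSO. CPM, TPM (over the union of a gene's coding bases), classes and lists were computed in Python 3.11.15 with pandas 2.3.3, numpy 2.4.6 and scipy 1.17.1, and plots with matplotlib 3.10.9. The lines were compared with edgeR 4.0.16 in R 4.3.3 (filterByExpr, TMM scaling, quasi-likelihood test, Benjamini-Hochberg adjustment) in a fit over all 8 libraries with a term for each group. The code was checked on simulated data. Alternatives were RLE factors, library size only, DESeq2 1.42.0, other filters, the 4 DMSO libraries alone, a replicate block, each library left out, other rules for presence, shares of TPM, nuclear genes only and, chosen after seeing the data, an offset for GC content. Named genes were the top 10 by CPM and by TPM, the leading members of each class, the most abundant and the defining absent members of each lineage list, mSWI/SNF subunits, a list of tumour suppressors and drivers, and the markers called between the lines. Some genes of these lists are not reported here. Members and lists were chosen with earlier results of these data known.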

Additional observations from a re-analysis of the deposited data

How the results depend on the processing

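No called marker changed direction under any alternative run. The alternatives refit the same libraries and the markers were chosen for folds above 2, so a change of direction was unlikely from the start. The share of the leading class, splicing and RNA-binding proteins, was 6.03% as the mean of both replicates, 5.96% to 6.09% with a replicate left out, 6.05% of nuclear genes only and 5.31% of TPM, and 24 of the 28 other classes moved by more than their SD between replicates when TPM replaced counts, which weights genes by length. Genes holding 50% of counts numbered 742, and 536 when ranked by TPM. Genes present numbered 10814 at 0.5 CPM, 10585 at 10 counts and 10361 at 1 TPM, and 10540 to 10629 from a single replicate; lineage markers present numbered 61, 56 and 55, and 56 to 58.

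Of the lineage markers, 13 were called between the uninduced lines, 7 when at least 10 counts were asked of every library, under which the 6 others (PDGFRA, S100A4, PAX2, FOXD1, JAG1 and MYH8) were not tested, and 10 to 14 with a library left out. Over all genes 552 were called, 288 with that filter and 299 to 438 with a library left out: 324 without GFP DMSO replicate 1 and 299 without GFP DMSO replicate 2. DESeq2 called 14 markers, the fit without a filter 16, the 4 DMSO libraries alone 16 and the fit with an offset for GC content, chosen after seeing the data, 14. With the replicate number as a block, 15 markers and 603 genes were called. Libraries of the same number deviated from their group means with correlations of 0.045 to 0.280 across genes, and 0.162 between the lines compared; the lowest was near 0 and no label ties a number to a shared batch, so the numbers were not taken as pairs, and whether such libraries share more than a number was not tested.

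With 2 libraries a group, an SD rests on a pair of values, and the calls of PAX2, JAG1, RGS5 and FOXD1 were each lost when a library was left out. Depth limits the low genes, where 3 counts or fewer cannot be told from 0.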

Other observations

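Among genes in no function class, chosen after their values were seen, several held a large share of footprints, which is not a level per length. PPME1, which removes a methyl group from protein phosphatase 2A, had 2466 and 2002 CPM and the 19th highest mean CPM of all genes. MME, the membrane peptidase neprilysin, had 2134 and 1636 CPM, and GJA1, the gap junction protein connexin 43, had 2028 and 1620.4 CPM. The scaffold protein AKAP12 had 1541 and 1749 CPM. PPME1, MME and GJA1 were lower in replicate 2 and AKAP12 was higher. Per coding length, BEX3 stood at 2940 ± 218 TPM (SD, n = 2), PTMS at 1907 ± 204 and PTMA, a nuclear protein of proliferating cells, at 1490.1 ± 147.

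Further genes of this kind, also picked after their values were seen, were APP, APLP2 and PSAP. APP, the amyloid precursor, had 1238 and 1353.5 CPM, and its paralog APLP2 had 1602 and 1493 CPM. PSAP, the precursor of the lysosomal saposins, had 1494 and 1667 CPM. APP is also expressed outside the nervous system, and the neuron list had 2 of 13 members present.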
